A study of Mus musculus with 10 samples.

Results

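The mitochondrial respiratory chain genes of the colon were examined in mice with TCT colitis, which is brought on by transfer of T cells. The set was taken by symbol. It holds every gene with a probe set of its own whose symbol begins with Nduf or Uqcr, or with Cox and a digit of 4 to 8, and the 4 genes Sdha, Sdhb, Sdhc and Sdhd. This gave 73 genes of the 18193 on the array. They comprised 6 core and 28 supernumerary subunits of complex I, 8 complex I assembly factors, the 4 subunits of complex II, 8 of complex III, 10 of complex IV, and 9 tissue isoforms or paralogs of complex IV subunits. Ndufa11 and Ndufs6 had only probe sets that several genes share and were not tested, and the Ndufb4 probe set was dim, at 3.69 on average on the log2 scale.

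All 10 mice were C57BL/6 Rag1-/- animals, which make no T or B cells of their own. Injections were made at an age of 10 weeks. In 6 mice the injected cells were naïve T cells, which cause colitis in such hosts, and of these inflamed distal colons 3 are labelled severe and 3 moderate. The 4 controls were given regulatory T cells (Tregs), and their colons are labelled as not inflamed. Colons were taken 2 to 3 months after injection, at 4 to 5 months of age, and each array measured 1 colon.

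The respiratory chain is a row of protein complexes in the inner mitochondrial membrane. Complex I takes electrons from NADH and complex II takes them from succinate, complex III passes them from ubiquinol to cytochrome c, and complex IV hands them to oxygen. Apart from complex II, the complexes move protons as they do so, and ATP synthase uses the resulting gradient. Mature colonocytes are known for burning butyrate from the gut flora through this chain. All members examined here are encoded in the nucleus, and several complex IV subunits exist as isoforms made mainly in heart and skeletal muscle, lung or testis.

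Levels are log2 values after RMA, a method that corrects background and gives the arrays a common distribution. The median probe set was at 5.36 to 5.40 on every array. Precision is limited by the number of colons. Levels of different probe sets cannot be set against each other. Of the 73 members, 55 averaged at least 10 and 10 averaged at least 13, with 14.61 the highest value on any array. Control probe sets at the 3′ and 5′ ends of Gapdh differed by 0.22 to 0.35 in severe, 0.07 to 0.49 in moderate and 0.05 to 0.32 in control colons. For beta-actin the difference was larger, at 0.80 to 0.84 in severe, 0.68 to 1.02 in moderate and 0.83 to 0.94 in control colons. Epithelial markers such as Epcam and Krt8 were high in every colon, their list averaging 12.94 to 13.09 in severe, 12.98 to 13.02 in moderate and 12.80 to 12.91 in control colons.

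Inflamed colons had lower levels of part of the chain. With two-sided limma tests and p-values adjusted over all 18193 genes (Benjamini-Hochberg, threshold 0.05), 21 of 73 members were lower in inflamed than in control colons (28.8%, against 21.2% of all genes) and 4 were higher (5.48%, against 18.5% of all genes). The remaining 48 did not pass the test. The differences were small, with a median of -0.08 on the log2 scale over the members and 0.03 over all genes. Among the members, 75.3% had a negative difference, against 44.9% of all genes. Cox7a1 alone differed by at least 2-fold, as did 8.23% of all genes. In 20 members every inflamed colon lay below every control colon (17.1% of all genes did), and in 2 members every inflamed colon lay above (14.6% of all genes).

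Between inflamed and control colons, the excess of members past the threshold as lower was kept in the planned rescalings and absent in a later one. Centring each array on its median over probe sets gave 20 lower members (27.4%, against 20.4% of all genes). Repeated quantile normalization gave 24 (32.9%, against 20.7%). An alternative chosen after seeing the data centred each array on its median over genes. It gave 12 lower members (16.4%, against 17.5% of all genes) and 5 higher ones (22.6% of all genes were higher). Of the members' differences 56.2% were negative, against 36.9% of all genes. Their median was -0.02, against 0.09 over all genes. The count of higher members was unsteady, at 1 without control replicate 1 (15.6% of all genes were higher). It was 2 without control replicate 3 or 4 (15.9% and 16.4% of all genes). In bulk tissue, fewer cells of a type and less RNA per cell cannot be told apart.

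**Figure D1:**
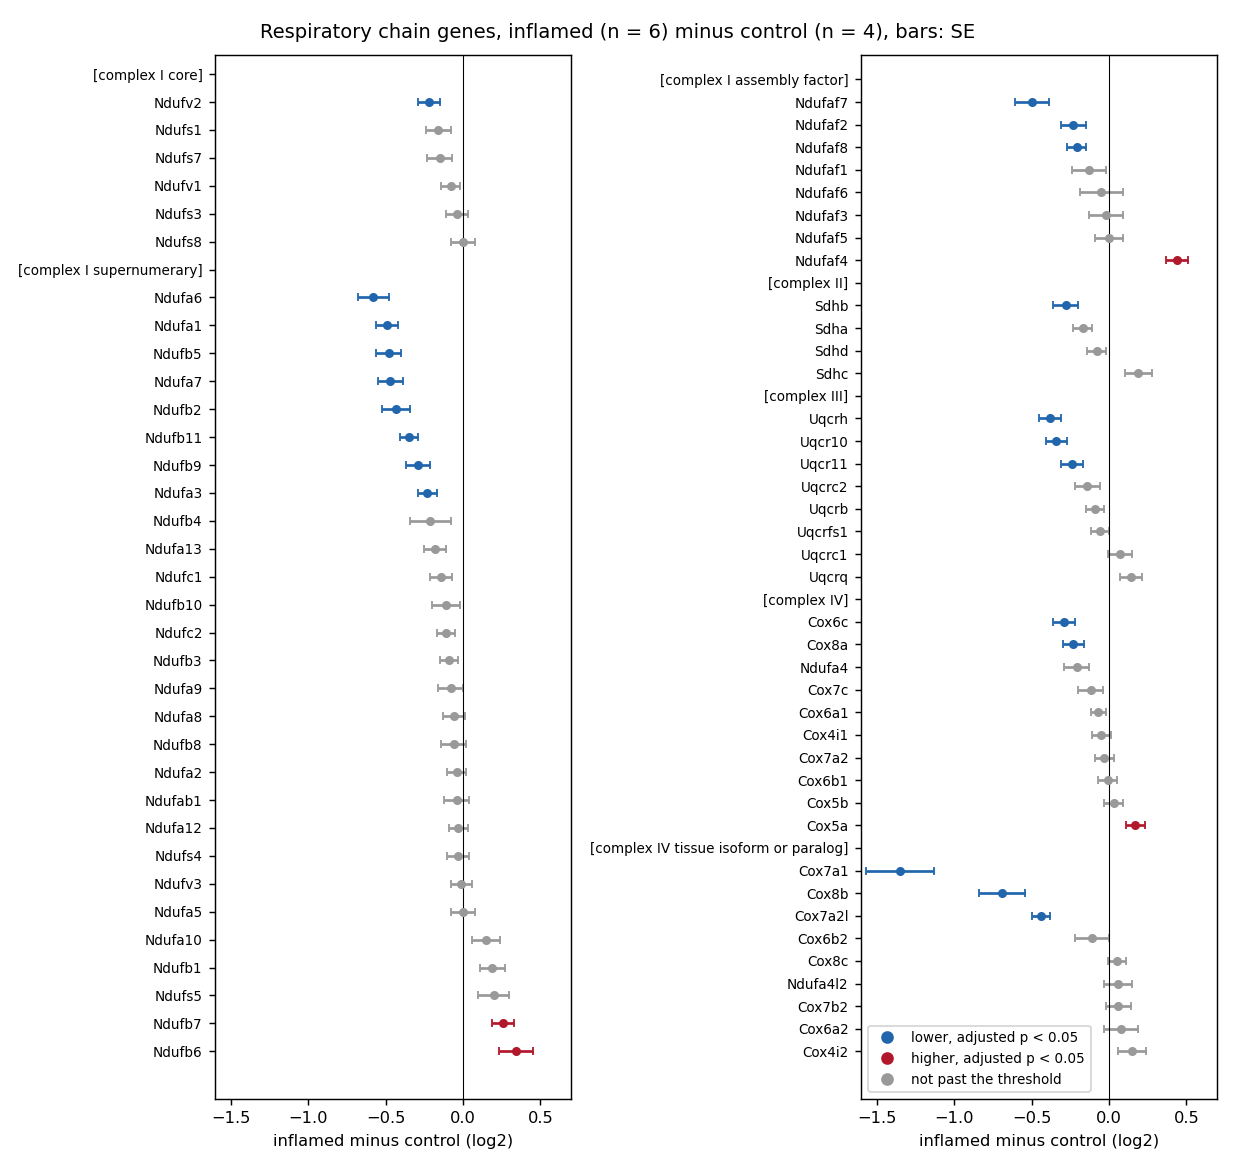
Difference between inflamed (n = 6) and control (n = 4) colons for each of the 73 members on the log2 scale, grouped by complex, with bars for the standard error. Blue points (21) are lower and red points (4) higher in inflamed colons at an adjusted p under 0.05, and Cox7a1 lies farthest from 0, at -1.35.

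**Figure D2:**
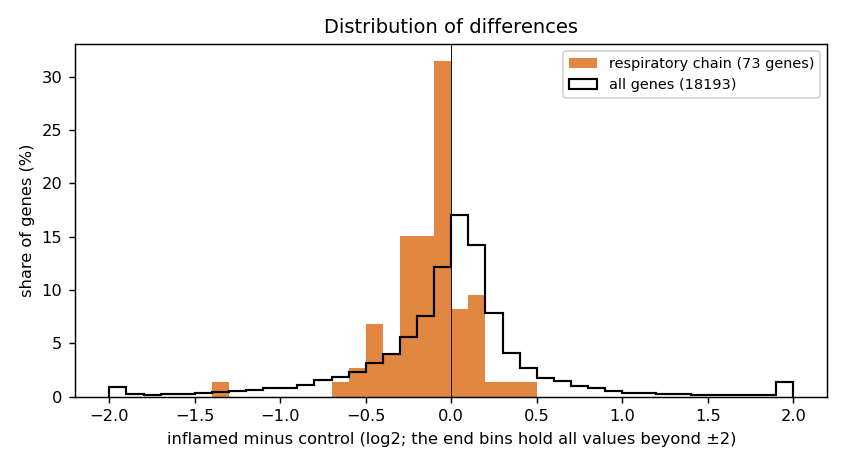
Share of genes (%) by inflamed minus control difference on the log2 scale, for the 73 members (filled) and all 18193 genes (line). Of the members 75.3% lie below 0, against 44.9% of all genes, and the members spread less widely than all genes.

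In complex I, 9 of 34 subunits fell in inflamed colons (26.5%, against 21.2% of all genes) and 2 rose (5.88%, against 18.5%). Of the supernumerary subunits, which surround the catalytic core, 8 of 28 fell (28.6%), and of the core subunits 1 of 6 (16.7%), against 21.2% of all genes. The difference between these shares was not tested. Ndufa6, a supernumerary subunit that holds the mitochondrial acyl carrier protein to the complex, had the largest fall. Its level was 11.65, 12.06 and 11.74 in severe, 11.75, 12.03 and 12.06 in moderate, and 12.54, 12.49, 12.43 and 12.38 in control colons. No inflamed colon reached the control range, and the difference was -0.58 ± 0.10 (SE, adjusted p = 0.00059, limma).

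Ndufa1, a small membrane subunit needed for assembly of complex I, measured 12.74, 12.92 and 12.78 in severe, 12.83, 13.04 and 12.90 in moderate, and 13.42, 13.40, 13.30 and 13.32 in control colons. Here too the groups did not overlap, with a difference of -0.49 ± 0.07 (adjusted p = 0.000226, limma). 6 more supernumerary subunits fell, all of them outside the rule for naming genes and listed after their values were seen. Ndufb5 (-0.48), Ndufb2 (-0.43), Ndufb11 (-0.35) and Ndufb9 (-0.29) belong to the membrane arm, and Ndufa7 (-0.47) and Ndufa3 (-0.23) complete the group. All 5 probe sets of Ndufa7 were lower in inflamed colons, by 0.47 to 0.63, with no overlap in any of them.

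Ndufv2, a core subunit that carries an iron-sulfur cluster of the NADH-oxidising module, was the core subunit that fell (-0.22 ± 0.07, adjusted p = 0.0246, limma). It measured 12.29, 12.52 and 12.35 in severe, 12.49, 12.43 and 12.59 in moderate, and 12.68, 12.67, 12.67 and 12.65 in control colons. The control values were nearly equal and just above the highest inflamed colon. Its other probe sets, however, differed by only -0.03 and -0.07, with overlap. The call was lost without severe replicate 3 or control replicate 1, 2 or 3 (adjusted p up to 0.0566, limma). The other 5 core subunits measured had differences between -0.16 (Ndufs1) and 0.00 (Ndufs8), none past the threshold.

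A pair of membrane arm subunits moved the other way. Ndufb6 had 11.88, 11.93 and 12.00 in severe, 11.63, 11.84 and 12.14 in moderate, and 11.47, 11.80, 11.40 and 11.56 in control colons (0.34 ± 0.11, adjusted p = 0.0231, limma). Ndufb7, which faces the intermembrane space, had 11.93, 12.15 and 12.13 in severe, 12.21, 12.13 and 12.08 in moderate, and 11.79, 11.73, 11.96 and 11.93 in control colons (0.26 ± 0.07, adjusted p = 0.0167, limma). In both genes the groups overlapped, Ndufb6 through moderate replicate 1 and control replicate 2, and Ndufb7 through severe replicate 1. Ndufb6 lost its call without control replicate 1, 3 or 4 (adjusted p up to 0.0785, limma), and Ndufb7 without control replicate 1 or 2 (up to 0.0598). The second probe set of Ndufb6 differed by only 0.09 and that of Ndufb7 by 0.16, both with overlap. With the mean over probe sets, and with a block by replicate number, Ndufb6 also lost its call.

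The assembly factors of complex I, which help build the complex and then leave it, split in direction. Of 8, 3 fell (37.5%, against 21.2% of all genes) and 1 rose (12.5%, against 18.5%). Ndufaf7, a methyltransferase that modifies a core subunit, had 7.59, 7.29 and 7.61 in severe, 7.29, 7.36 and 7.78 in moderate, and 7.86, 7.98, 8.18 and 7.90 in control colons. Its difference was -0.50 ± 0.11 (adjusted p = 0.00374, limma), with moderate replicate 3 closest to the controls. Ndufaf2, a paralog of the subunit Ndufa12, differed by -0.23 ± 0.08 (adjusted p = 0.0346, limma), with values of 7.80 to 8.11 (median 7.96) in inflamed and 8.07 to 8.28 in control colons, which overlapped. Ndufaf8 (-0.21), named after its value was seen, was the third. Ndufaf2 lost its call without severe replicate 2, moderate replicate 1 or 2, or control replicate 2, 3 or 4 (adjusted p up to 0.103, limma), and Ndufaf8 without control replicate 1, 3 or 4 (up to 0.0674).

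Ndufaf4, which acts together with Ndufaf3 early in assembly, had the largest rise of any member. It measured 9.97, 9.98 and 9.89 in severe, 9.97, 9.89 and 10.04 in moderate, and 9.71, 9.38, 9.51 and 9.47 in control colons, so that every inflamed colon was above every control (0.44 ± 0.07, adjusted p = 0.000555, limma). Its second, dimmer probe set went the opposite way, at -0.27 with overlap. The mean of both gave 0.08 (adjusted p = 0.427, limma), so the direction of Ndufaf4 depended on the probe set.

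In complex II, which is also the succinate dehydrogenase of the TCA cycle, Sdhb fell and the other 3 subunits did not pass the threshold. Sdhb, the iron-sulfur subunit, had 11.95, 12.10 and 12.06 in severe, 12.13, 12.15 and 12.33 in moderate, and 12.25, 12.42, 12.50 and 12.45 in control colons. Moderate replicate 3 lay above control replicate 1, and the difference was -0.28 ± 0.08 (adjusted p = 0.0162, limma). Without control replicate 3 the adjusted p was 0.0539 (limma).

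Sdha, the flavoprotein that oxidises succinate, ranged from 11.47 to 11.61 (median 11.57) in inflamed and from 11.65 to 11.86 in control colons. These ranges did not meet, yet the test was just short of the threshold (-0.17 ± 0.06, adjusted p = 0.0565, limma). The membrane anchors differed in sign. Sdhc had a difference of 0.19 ± 0.09 (adjusted p = 0.118, limma) and Sdhd of -0.08 ± 0.06 (adjusted p = 0.35, limma). For Sdhc, severe replicate 1 was at 10.45 and the other 5 inflamed colons at 10.74 to 10.86, and without that colon the difference was 0.25 (adjusted p = 0.0197, limma).

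In complex III 3 of 8 subunits fell (37.5%, against 21.2% of all genes) and none rose (18.5% of all genes did). All 3 are small accessory subunits. Uqcrh, the hinge protein beside cytochrome c1, had 12.88, 12.94 and 12.95 in severe, 12.97, 13.01 and 12.99 in moderate, and 13.48, 13.31, 13.35 and 13.21 in control colons. The 6 inflamed colons were close together and all below the controls (-0.38 ± 0.07, adjusted p = 0.000676, limma).

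Uqcr10 had 11.95, 12.05 and 12.05 in severe, 12.08, 12.08 and 12.19 in moderate, and 12.31, 12.50, 12.47 and 12.34 in control colons (-0.34 ± 0.07, adjusted p = 0.00186, limma). All 3 of its probe sets were lower with no overlap. Uqcr11, named after its value was seen, differed by -0.24 ± 0.07 (adjusted p = 0.0242, limma). It lost its call without control replicate 2, 3 or 4 (adjusted p up to 0.0789, limma). The core proteins Uqcrc1 (0.07) and Uqcrc2 (-0.14) and the Rieske iron-sulfur protein Uqcrfs1 (-0.06) did not pass the threshold. The second probe set of Uqcrc2, however, was at -0.26, with every inflamed colon below every control. Uqcrb did not pass it either (-0.09), but its second probe set was at -0.37, also without overlap. The probe sets of Uqcrq were all higher, by 0.01 to 0.14, with overlap.

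Promoter sequences of some of these genes are shown because the members that fell or rose could then be read beside the sequence motifs of factors known to act on respiratory chain genes. They are from RefSeq (build GRCm38.p6), which gave a promoter of 250 bases before to 50 after the gene start for 59 of the 73 members, and they run 5′ to 3′ along the gene. The motifs searched on both strands were GCGCATGC (NRF1), CCGGAAGT (ETS factors such as the GABP complex), AAGATGGC (YY1) and TCAAGGTCA (estrogen-related receptors, ERR). Capitals mark a match. The NRF1 letters overlap their own reverse complement, and the other motifs do not overlap each other. Ndufa6, Sdhb and Uqcrh fell, and Cox7a1 is the member with the largest fall. Ndufaf4 rose on the probe set used, while its other probe set was lower (-0.27).
Ndufa6 (chr15:82354242-82354541, minus strand): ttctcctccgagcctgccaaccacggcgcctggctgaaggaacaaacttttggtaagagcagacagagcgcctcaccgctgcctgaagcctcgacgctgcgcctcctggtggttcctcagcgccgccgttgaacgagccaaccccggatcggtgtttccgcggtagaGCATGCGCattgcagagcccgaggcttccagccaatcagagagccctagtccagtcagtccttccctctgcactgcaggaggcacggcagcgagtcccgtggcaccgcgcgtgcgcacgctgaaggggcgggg
Sdhb (chr4:140961021-140961320, plus strand): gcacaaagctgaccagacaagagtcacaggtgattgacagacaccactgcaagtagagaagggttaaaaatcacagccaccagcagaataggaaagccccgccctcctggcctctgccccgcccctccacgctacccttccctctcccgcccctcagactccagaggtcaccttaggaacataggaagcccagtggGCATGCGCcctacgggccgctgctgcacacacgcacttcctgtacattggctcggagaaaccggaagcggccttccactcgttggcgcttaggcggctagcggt
Uqcrh (chr4:116075021-116075320, minus strand): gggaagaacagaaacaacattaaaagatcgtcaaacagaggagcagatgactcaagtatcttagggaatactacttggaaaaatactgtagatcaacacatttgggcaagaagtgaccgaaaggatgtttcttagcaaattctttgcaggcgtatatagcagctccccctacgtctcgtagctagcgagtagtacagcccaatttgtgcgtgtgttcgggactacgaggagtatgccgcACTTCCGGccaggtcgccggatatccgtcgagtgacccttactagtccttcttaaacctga
Ndufaf4 (chr4:24897833-24898132, plus strand): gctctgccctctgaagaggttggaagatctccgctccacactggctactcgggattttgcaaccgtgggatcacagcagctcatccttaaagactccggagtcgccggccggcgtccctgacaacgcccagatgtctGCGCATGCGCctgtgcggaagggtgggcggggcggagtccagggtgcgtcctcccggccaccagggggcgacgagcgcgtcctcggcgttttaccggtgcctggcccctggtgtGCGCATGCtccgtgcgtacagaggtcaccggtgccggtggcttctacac
Cox7a1 (chr7:30183921-30184220, plus strand): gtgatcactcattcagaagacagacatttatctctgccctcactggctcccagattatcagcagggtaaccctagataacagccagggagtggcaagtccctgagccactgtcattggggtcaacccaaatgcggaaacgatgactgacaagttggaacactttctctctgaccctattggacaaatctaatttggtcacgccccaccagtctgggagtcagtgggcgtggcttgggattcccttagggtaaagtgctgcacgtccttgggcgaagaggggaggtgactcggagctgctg

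Ndufa6 and Sdhb each hold 1 NRF1 match, 83 and 54 bases before the start, and Ndufaf4 holds 3 NRF1 matches, of which 2 overlap. Uqcrh holds 1 ETS match 11 bases before the start, and Cox7a1 holds none of the 4 motifs. Across all members with a promoter, 13.6% held the NRF1 letters (4.68% of all genes tested), 6.78% the ETS letters (6.62%), 11.9% the YY1 letters (4.07%) and 1.69% the ERR letters (0.401%). At least 1 of the 4 was in 32.2% of the members with a promoter, against 14.7% of all genes tested. The promoters shown hold a match more often than the members as a whole. A match was in 7 of the 19 members that fell, 1 of the 4 that rose and 11 of the 36 that did not pass the threshold. The 1 that rose was Ndufaf4, whose direction depended on the probe set. A match describes the letters only.

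In complex IV, 2 of the 10 subunits made in most tissues fell (20%, against 21.2% of all genes) and 1 rose (10%, against 18.5%). Cox6c, a small membrane subunit, had 13.16, 13.35 and 13.14 in severe, 13.31, 13.41 and 13.35 in moderate, and 13.65, 13.56, 13.55 and 13.54 in control colons (-0.29 ± 0.07, adjusted p = 0.00676, limma). Cox8a, the smallest subunit, had 12.20, 12.48 and 12.31 in severe, 12.38, 12.46 and 12.47 in moderate, and 12.54, 12.58, 12.71 and 12.63 in control colons (-0.23 ± 0.07, adjusted p = 0.0253, limma). Neither gene's groups overlapped on these probe sets. They did overlap on the other probe sets, at -0.15 for Cox6c and at -0.21 and -0.01 for Cox8a. Cox8a lost its call without severe replicate 3 or control replicate 3 or 4 (adjusted p up to 0.0812, limma). It also lost it with the mean over probe sets and with a block by replicate number. Both genes lost their call with arrays centred on the median of genes.

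Cox5a, a subunit on the matrix side, was the 1 that rose, with 13.44, 13.46 and 13.47 in severe, 13.41, 13.42 and 13.43 in moderate, and 13.31, 13.37, 13.16 and 13.25 in control colons. The difference of 0.17 ± 0.06 was close to the threshold (adjusted p = 0.0385, limma), and the call was kept in only 10 of 21 alternative settings. It was lost on leaving out any colon other than control replicate 2 (adjusted p up to 0.122, limma). Ndufa4, a complex IV subunit despite its name, differed by -0.21 ± 0.08 (adjusted p = 0.053, limma).

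**Figure D3:**
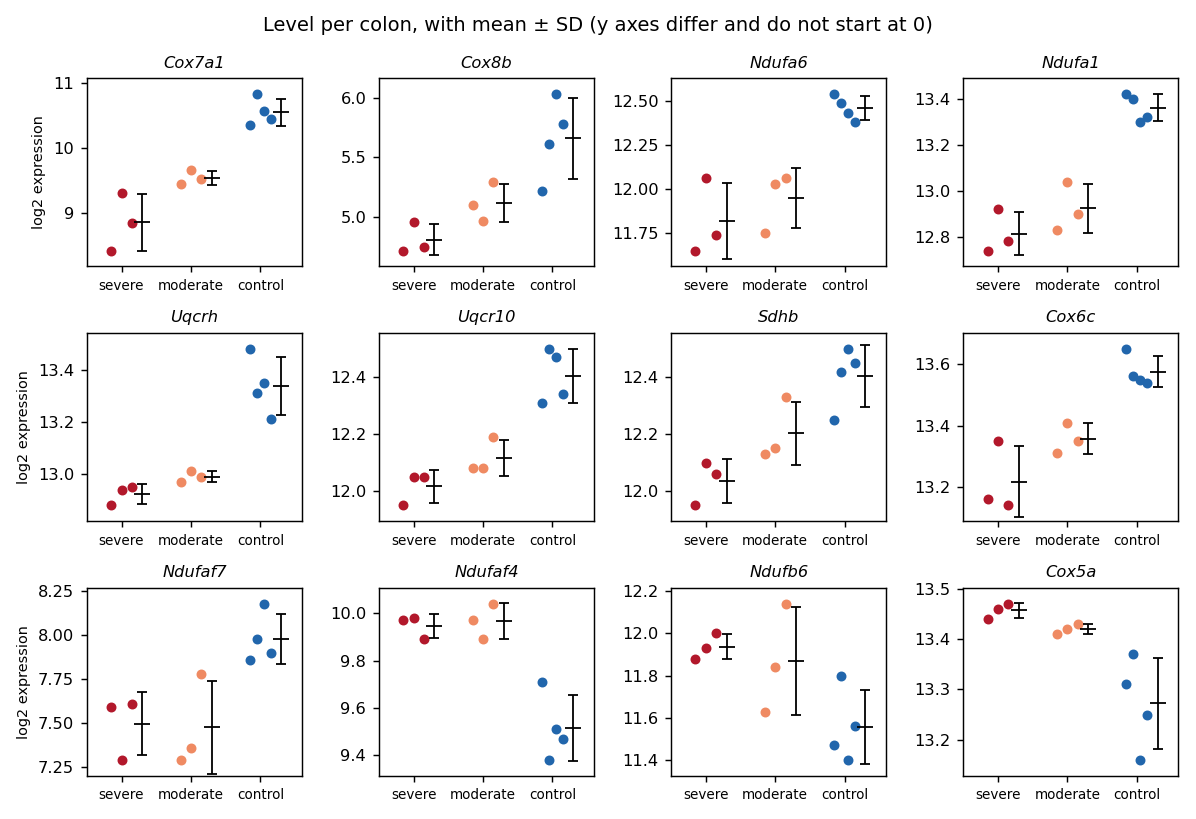
Log2 level of 12 members in each severe (n = 3), moderate (n = 3) and control (n = 4) colon, with the mean and SD of each group as a bar to the right of its points. Cox7a1 measured 8.42 to 9.66 in the inflamed colons and 10.36 to 10.83 in control colons, and Ndufaf4 measured 9.89 to 10.04 in inflamed and 9.38 to 9.71 in control colons.

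Among the complex IV isoforms and paralogs, 3 of 9 fell (33.3%, against 21.2% of all genes) and none rose (18.5% of all genes did). Cox7a1, the isoform of Cox7a typical of heart and skeletal muscle, had the largest change of any member. It measured 8.42, 9.30 and 8.85 in severe, 9.44, 9.66 and 9.52 in moderate, and 10.36, 10.83, 10.57 and 10.44 in control colons. All 3 groups were apart, and the inflamed level was 2.55-fold lower (-1.35 ± 0.22, adjusted p = 0.000435, limma).

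Cox7a2, the isoform made in most tissues, differed by -0.03 ± 0.06 (adjusted p = 0.735, limma), with 13.49 to 13.65 (median 13.59) in inflamed and 13.52 to 13.73 in control colons. Cox7a2l, a paralog of Cox7a2, was named after its value was seen. It had 11.28, 11.13 and 11.17 in severe, 11.33, 11.19 and 11.29 in moderate, and 11.67, 11.66, 11.71 and 11.67 in control colons. The control values were nearly the same and well clear of the inflamed ones (-0.44 ± 0.06, adjusted p = 0.000158, limma), and all 3 probe sets were lower, by 0.44 to 0.59.

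Cox8b, the muscle isoform of Cox8, had 4.72, 4.96 and 4.75 in severe, 5.10, 4.97 and 5.29 in moderate, and 5.22, 5.61, 6.03 and 5.78 in control colons (-0.69 ± 0.15, adjusted p = 0.00357, limma). Its probe set was dim, averaging 5.24 over all colons, and moderate replicate 3 overlapped control replicate 1. The isoforms of other subunits did not pass the threshold: Cox6a2 of heart and muscle (0.08), Cox4i2 of lung (0.15), Cox6b2 of testis (-0.11) and the hypoxia-induced Ndufa4l2 (0.06). Their partners made in most tissues did not pass it either, with Cox6a1 at -0.07, Cox4i1 at -0.05 and Cox6b1 at -0.01, values whose sign turned with the scaling of the arrays for Cox4i1 and Cox6b1, as it did for Cox7a2. The second probe set of Cox6a1 was at -0.22, with every inflamed colon below every control, and the mean of both gave -0.14 (adjusted p = 0.0442, limma).

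**Figure D4:**
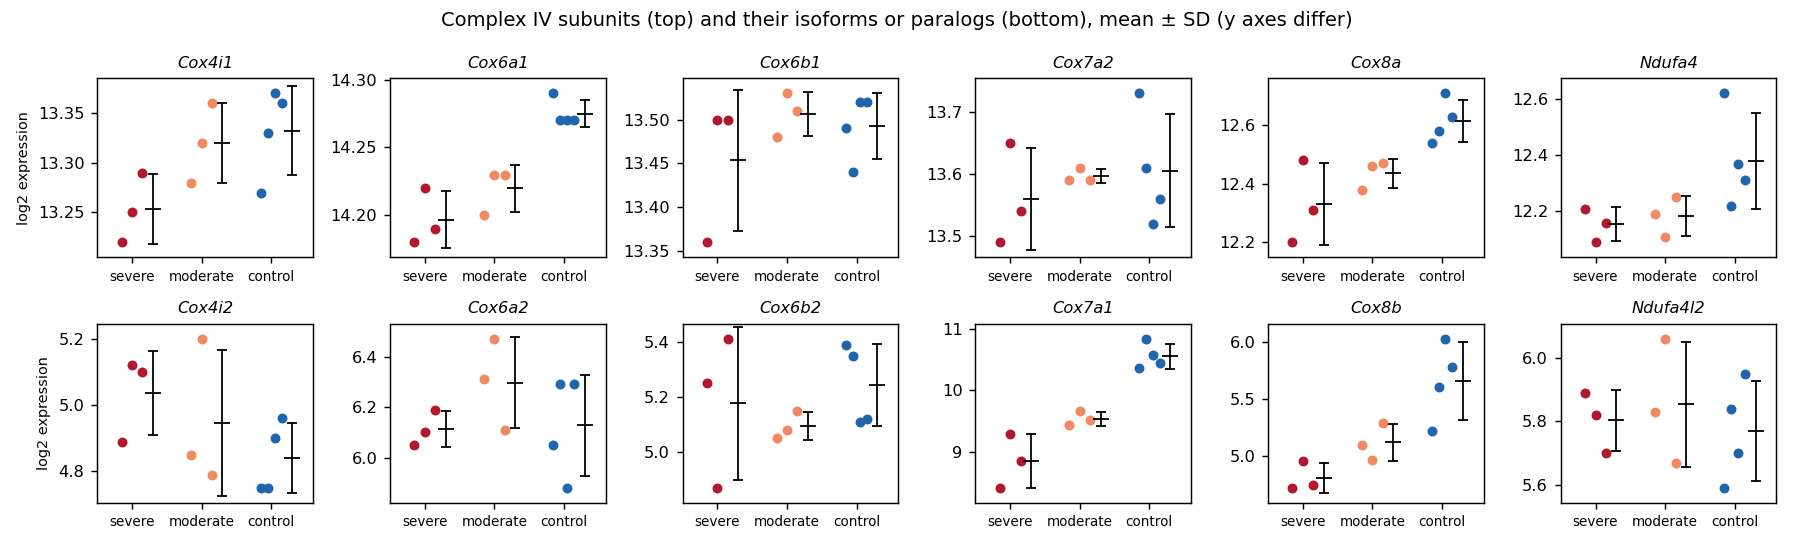
Log2 level in each severe, moderate and control colon of 6 complex IV subunits made in most tissues (top row) and their isoforms or paralogs (bottom row), with mean and SD. Cox7a1 and Cox8b are lower in inflamed colons (-1.35 and -0.69), while Cox7a2 is not past the threshold (-0.03).

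Smooth muscle markers moved in the same comparison. All 8 were lower in inflamed colons, by 1.05 (Lmod1) to 2.27 (Myh11), and their mean level was 9.26 to 9.55 in severe, 9.32 to 10.09 in moderate and 11.08 to 11.46 in control colons. Relative to the control mean, their list stood at -1.68, -1.97 and -1.75 in severe and -1.15, -1.91 and -1.23 in moderate colons. The part of smooth muscle in the Cox7a1 and Cox8b differences was not tested.

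Colonocyte markers moved as well. Of 8 genes, 7 fell in inflamed colons, with a median difference of -2.02, and the list averaged 8.45 to 9.88 in severe, 9.48 to 10.69 in moderate and 12.57 to 12.67 in control colons. Pan-epithelial markers were not lower, with 3 of 8 higher and a median of 0.11. T cell (5 of 5), macrophage and monocyte (6 of 6) and neutrophil (4 of 4) markers were all higher, with list means of 6.67 to 7.44, 7.82 to 9.39 and 7.31 to 9.86 in inflamed colons, against 4.91 to 5.22, 6.79 to 6.95 and 4.24 to 5.53 in control colons. The part of these cell types in the respiratory chain differences was not tested.

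The colons differed among themselves. Severe replicate 1 had 50 of 73 members below every control (68.5%, against 34.3% of all genes) and moderate replicate 3 had 21 (28.8%, against 33.1%). The other 4 inflamed colons had 31 to 41 (42.5% to 56.2%, against 31.7% to 33.2%). Above every control were 4 members in severe replicate 1 (5.48%, against 34.2% of all genes) and 21 in moderate replicate 3 (28.8%, against 31.8%). The mean of all members relative to control was -0.23, -0.11 and -0.13 in severe, -0.15, -0.12 and -0.01 in moderate, and -0.03, 0.00, 0.05 and -0.01 in control colons. Moderate replicate 3 therefore lay within the control range, and severe replicate 1 was lowest. The same colons were at the ends of the colonocyte list, with -4.17 in severe replicate 1 and -1.93 in moderate replicate 3. On the T cell list severe replicate 1 was highest, at 2.38. Moderate replicate 3 was at 1.61 there, nearly level with severe replicate 2 (1.62) and moderate replicate 2 (1.63). Severe replicate 1 also had the highest means of the macrophage and monocyte (2.51) and neutrophil (5.20) lists. Moderate replicate 3, at 1.17 and 3.10, was not the lowest inflamed colon on either. Moderate replicate 2 was lowest on the first (0.95) and moderate replicate 1 on the second (2.65). The part of these cells in the members' levels was not tested. Without moderate replicate 3, 23 members were lower (31.5%, against 21.1% of all genes) and 3 higher (18.7% of all genes were higher). Without severe replicate 1, 21 were lower (28.8%, against 20.8%) and 5 higher (18.3% of all genes were higher).

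**Figure D5:**
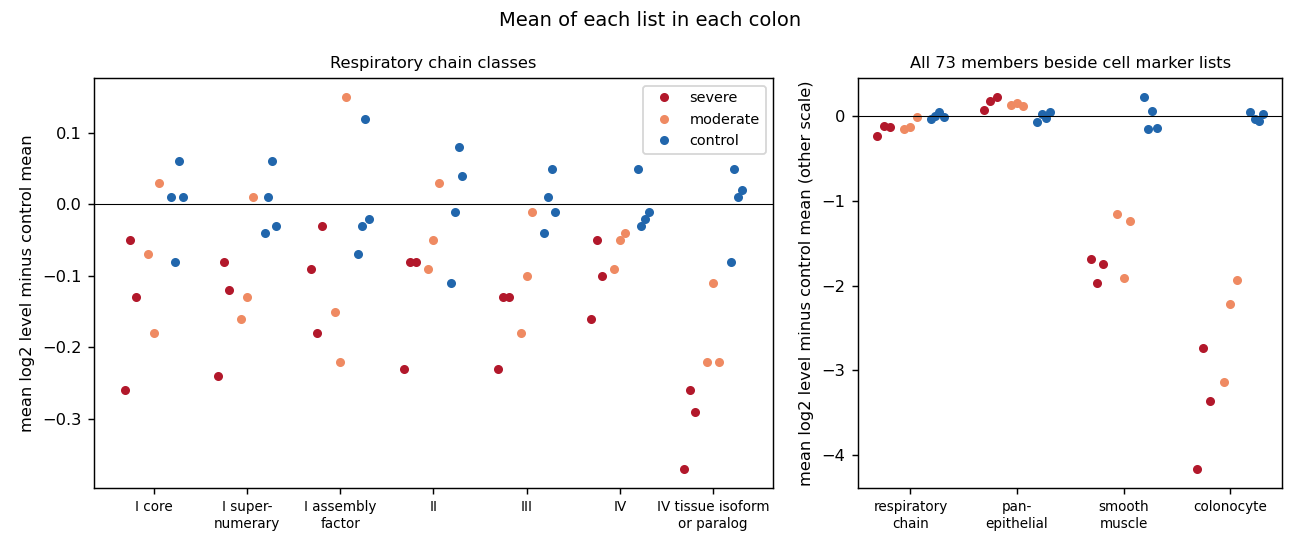
Mean log2 level relative to the control mean, 1 point per colon, for the 7 classes of respiratory chain genes (left) and for all 73 members beside 3 marker lists on a wider scale (right). The members' mean spans -0.23 to -0.01 in inflamed colons, whereas the colonocyte list spans -4.17 to -1.93 and the smooth muscle list -1.97 to -1.15.

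Set apart by severity, both groups of inflamed colons were compared with the same 4 controls. In severe colons 21 members were lower (28.8%, against 18.9% of all genes) and 2 were higher (2.74%, against 16.1%), with a median of -0.10. With arrays centred on the median of genes 14 were lower in severe colons (19.2%, against 15.7% of all genes). The members' median was then -0.04, against 0.08 over all genes. In moderate colons 12 were lower (16.4%, against 16.7% of all genes) and 2 were higher (2.74%, against 13.2%), with a median of -0.06. That median was -0.13 without moderate replicate 3 and -0.04 without moderate replicate 1. With arrays centred on the median of genes it was 0.00, against 0.09 over all genes. There 8 were lower (11.0%, against 13.3% of all genes), and 50.7% of the members had a negative difference, against 36.8% of all genes. Cox7a1 differed from control by -1.69 ± 0.18 in severe and -1.01 ± 0.18 in moderate colons (adjusted p = 6.19e-05 and 0.00204, limma). Ndufa6 differed by -0.64 ± 0.11 in severe and -0.51 ± 0.11 in moderate colons, and Sdhb by -0.37 ± 0.09 and -0.20 ± 0.09, of which only the severe one passed the threshold.

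Between severe and moderate colons directly, none of the 73 members passed the threshold, and 0% of all genes did (limma). At an unadjusted p under 0.05 limma gave 1 member and 922 of all genes, and the methods' t-test gave 2 members, with none after adjustment. The 1 member was Cox7a1, at -0.68 ± 0.20 (adjusted p = 0.802, limma). In 57 of 73 members the severe mean was below the moderate mean (78.1%, against 51.4% of all genes), with a median of -0.05. Without moderate replicate 3, 41 members had the lower mean in severe colons (56.2%, against 51.7% of all genes), with a median of -0.01. Without severe replicate 1 the share was 67.1% (against 50.8%) and the median -0.03, and without moderate replicate 1 or 2 the median was -0.08. These counts do not show that the 2 degrees of inflammation are alike.

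The rest of the pathway was read from lists beside the chain, against the same 21.2% lower and 18.5% higher of all genes. Of the 16 genes of complex V (ATP synthase), 2 fell and none rose, with the membrane ring subunit Atp5g2 at -0.45 ± 0.07. Among 13 electron carriers and genes of ubiquinone synthesis, 3 fell and 2 rose. Coq9, a lipid-binding protein of ubiquinone synthesis, was at -0.50 ± 0.08 and Coq7, a hydroxylase of that pathway, at 0.34 ± 0.08. Of 33 other assembly factors 11 fell and 1 rose, led by Sdhaf4, which helps assemble complex II (-0.80 ± 0.07), and Cox11, which delivers copper to complex IV (0.28 ± 0.07).

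The TCA cycle, which feeds the chain with NADH and succinate, had 10 of 18 genes lower and 2 higher, a median of -0.25. Suclg1, a subunit of succinyl-CoA ligase, differed by -0.56 ± 0.09, and Dlst, a subunit of 2-oxoglutarate dehydrogenase, by 0.30 ± 0.07. Of 23 genes of mitochondrial translation only 1 fell and 3 rose, with the ribosome recycling factor Mrrf at -0.32 ± 0.08 and the ribosomal protein Mrps7 at 0.41 ± 0.10. Among 17 genes of import and the outer membrane 1 fell and 7 rose, with the channel Vdac3 at -0.69 ± 0.08 and the import pore Tomm40 at 0.62 ± 0.12.

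Regulators of mitochondrial gene expression included the largest differences on these lists. Of 19, 9 fell and 4 rose. Esrrg, an estrogen-related receptor, was at -2.73 ± 0.36 (6.63-fold lower, adjusted p = 0.000115, limma), and Ppard, a nuclear receptor of fatty acid use, at 0.31 ± 0.11 (adjusted p = 0.0346, limma). Named after its value was seen, Ppargc1a, the coactivator PGC-1α, differed by -1.99 ± 0.19 (3.98-fold lower, adjusted p = 1.56e-05, limma). For the factors whose motifs were searched above, Nrf1 was at 0.23 ± 0.08 (adjusted p = 0.038, limma), Yy1 at 0.18 ± 0.08 (adjusted p = 0.091, limma) and Esrra at 0.31 ± 0.09 (adjusted p = 0.0143, limma). The subunits of GABP differed in sign, with Gabpa at -0.44 ± 0.09 and Gabpb1 at 0.25 ± 0.08, both past the threshold.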

How the data were processed

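Distal colon RNA of 10 mice was hybridised to Affymetrix mouse arrays, 1 per mouse. Per the labels, the authors produced the deposited log2 values, 1 for each probe set, with Affymetrix Expression Console and RMA (versions not given in the sources used here). Of 45101 probe sets, 34945 carry 1 gene in the platform annotation and 932 carry several. Probe sets of several genes were left out, and a gene was given its probe set of highest mean, which left 18193 genes (148 probe sets for the 73 members, 41 of which had more than 1).

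Linear models were fitted in limma 3.58.1 (R 4.3.3) to all 18193 genes, with moderated two-sided tests, Benjamini-Hochberg adjustment and a threshold of 0.05. A first model held inflamed and control colons, and another held severe, moderate and control colons as 3 groups. The procedure was checked on simulated data. Named genes were, per class, the 2 largest falls and 2 largest rises past the threshold, complex II, the isoform pairs, and per pathway list the largest fall and rise. The members, lists, motifs and tests were chosen with earlier results of these data known. Settings varied were the value per gene, probe sets with suffix x or s, dim genes (mean under 5), scaling, the variance prior, weights on arrays, the design, the methods' t-test, a block by replicate number, and each array left out. Figures were drawn with matplotlib 3.10.9.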

Additional observations from a re-analysis of the deposited data

Results flagged for a closer look

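In 3 of the 56 groups of values examined (28 named members, inflamed and control colons), 1 colon stood far from the others, where chance flags about 1 in 20. Cox6b1, a complex IV subunit, was at 13.36 in severe replicate 1, with the next inflamed colon at 13.48. Sdhc, a membrane anchor of complex II, was at 10.45 in the same colon, with the next at 10.74. Cox6a1, a complex IV subunit near the top of the measured scale, was at 14.29 in control replicate 1 and at 14.27 in the other controls, a gap of 0.02 on the log2 scale.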

How the results depend on the processing

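Of the 25 members past the threshold between inflamed and control colons, 12 kept their call in all settings that gave a value (21, and 20 for Ndufaf7, which has no other probe set): Cox7a1, Cox7a2l, Cox8b, Ndufa1, Ndufa6, Ndufa7, Ndufaf7, Ndufb2, Ndufb5, Ndufb11, Uqcr10 and Uqcrh. The count of lower members was 12 with arrays centred on the median of genes, chosen after seeing the data (16.4%, against 17.5% of all genes). It was otherwise 18 (replicate block, 24.7% against 19.8%) to 29 (mean over probe sets, 39.7% against 20.6%). With 1 colon left out it was 15 (without control replicate 3, 20.5% against 18.6%) to 23 (without moderate replicate 3, 31.5% against 21.1%). For severe colons against control it was then 15 (20.5%, against 17.0% of all genes) to 21 (28.8%, against 18.9% to 19.0%). For moderate colons it was 8 (11.0%, against 13.5% to 13.7%) to 14 (19.2%, against 15.2%). The count of higher members was 1 to 5 with 1 colon left out for inflamed, 1 to 2 for severe and 1 to 3 for moderate colons against control. Of all genes, 15.6% to 18.7%, 12.1% to 16.4% and 9.93% to 13.7% were higher in these fits. For severe colons the count was 1 with the mean over probe sets (15.8% of all genes were higher), 4 with array weights (19.5%) and 1 with the methods' t-test (13.9%). For moderate colons it was 1 with the methods' t-test (9.14%). Severe minus moderate gave 0 members in every setting.

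Differences near 0 changed sign: Cox4i1 to 0.01 (centred on genes), Cox6b1 to 0.00 (centred on probe sets) and 0.05 (quantile normalization repeated, or centred on genes), Cox7a2 to 0.02 (quantile) and 0.03 (centred on genes), and Sdhd to 0.08 (mean over probe sets). With 1 colon left out, Cox6a2 spanned 0.00 to 0.13, Ndufa4l2 0.00 to 0.12, Cox6b1 -0.03 to 0.01 and Cox7a2 -0.06 to 0.01. The causes were not tested.

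Replicate numbers are shared by the groups. After the group means were removed, same-numbered colons correlated at -0.08 to 0.29 over all genes. Colons of different numbers were not compared in this way, so whether the numbers pair the colons was not tested. A replicate block gave 18 lower members for inflamed colons against control (24.7%, against 19.8% of all genes). For severe colons it gave 17 (23.3%, against 17.5%) and for moderate colons 10 (13.7%, against 15.1%). The higher members numbered 2, 1 and 2, where 16.6%, 14.5% and 11.5% of all genes were higher. The highest members, up to 14.23 on average, lay near the top of the scale, and saturation was not tested.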
